A study of Mus musculus with 6 samples.

Results

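This account covers 10 genes that read out the Wnt pathway in the mouse embryonic stem cell line E14: the target genes Axin2, Nkd1, Nkd2, Rnf43, Sp5 and Cdx1, the signal carrier Ctnnb1, and the DNA-binding factors Tcf7, Tcf7l1 and Lef1. They were taken by name, and all 10 stood among the 33924 gene symbols of the count tables. RNA was sequenced in 3 libraries with the label Rif1-KO and 3 with the label control, to ask how gene expression differs once Rif1, a nuclear protein with roles in replication timing and DNA repair, is depleted. Per the labels' protocols, both groups grew on 0.1% gelatin in 2i medium at 37 °C and 5% CO2, and both were given 0.1 µM 4-OHT (4-hydroxytamoxifen) for 2 days followed by 1 day without it. In the column headers, however, TAM appears for the 3 Rif1-KO libraries and 2i for the 3 controls. A difference in drug or medium between the groups therefore cannot be told apart from the genotype. How Rif1 was disrupted is not given in the sources used here.

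In the canonical Wnt pathway, a Wnt ligand bound to a Frizzled receptor and an LRP co-receptor stops the destruction complex, in which the kinase GSK3 marks beta-catenin for breakdown. Beta-catenin then gathers in the nucleus, joins TCF and LEF factors on DNA and turns on target genes, several of which encode inhibitors that feed back on the pathway. The 2i medium holds a GSK3 inhibitor, which raises beta-catenin without a ligand, and in mouse embryonic stem cells this relieves repression by TCF7L1 of genes of naive pluripotency. The targets named here are therefore commonly read as a sign of that arm of the medium.

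Total read counts ran from 9185062 to 10980777 in Rif1-KO libraries and from 8383632 to 9218036 in control. Rif1 itself had 602, 604 and 664 CPM (reads of a gene scaled to the size of its library) in Rif1-KO libraries, against 673, 657 and 700.1 CPM in control, a log2 fold change of -0.12 ± 0.05 (SE) that did not pass (adjusted p = 0.0509). Gene-level counts do not resolve exons, so this neither bears out the label nor goes against it. Pluripotency markers were read at high levels in both groups: the 6 listed summed to between 3219 and 3288 CPM in Rif1-KO libraries and between 3405 and 3444 CPM in control. Genes were tested with edgeR's quasi-likelihood test and called at a Benjamini-Hochberg adjusted p under 0.05. Every adjusted p below comes from that test over 14250 genes unless another tool is named, and CPM errors are standard deviations (SD, n = 3). Of the 6 pluripotency markers, Nanog and Klf4 were called higher and Sox2 lower, while Pou5f1, Zfp42 and Esrrb were not called. For comparison, 26.1% of all genes tested were called higher and 24.8% lower. Sox2 stood at 469 ± 19.4 CPM in Rif1-KO libraries and 683 ± 31.8 CPM in control (adjusted p = 1.78e-08).

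Of the 10 genes, 9 passed the filter on low counts, and Sp5 did not. The Rif1-KO libraries had higher levels of Nkd2, Cdx1, Rnf43 and Ctnnb1 and lower levels of Tcf7 and Tcf7l1, while Axin2, Nkd1 and Lef1 did not pass. Over all genes tested, 50.9% were called, 26.1% as higher and 24.8% as lower, so a count of 6 called among 9 is not read as particular to these genes. With an offset for GC content and length, the calls over all genes came to 2883 higher and 4747 lower, against 3722 higher and 3529 lower without it, whereas the 10 genes gave 4 higher and 2 lower either way. Cdx1 passed the filter only through its counts in Rif1-KO libraries. Lef1 met the filter's limit of 1.09 CPM in every Rif1-KO library but not in every control library. At 7 of the 9 tested genes no Rif1-KO value fell within the control range or the reverse, which was so for 57.2% of all genes tested. This count too is not read as particular to these genes.

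**Figure D1:**
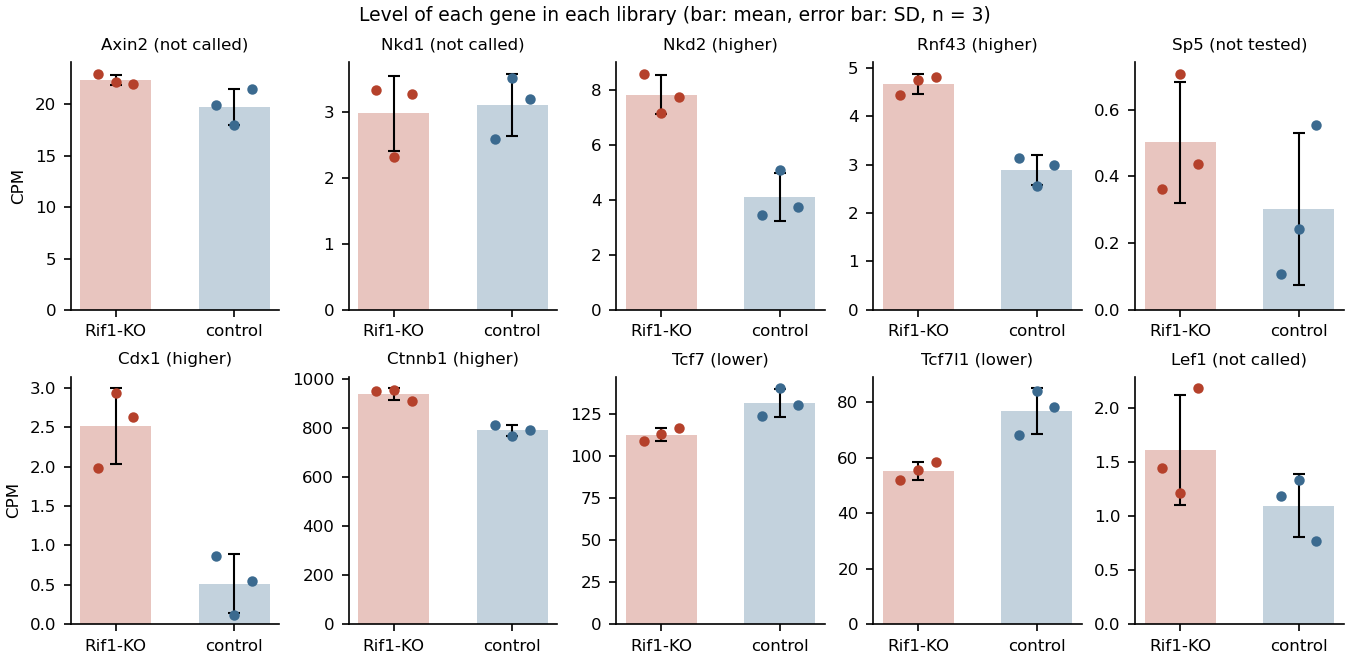
CPM of each of the 10 genes in each library, with its own vertical scale starting at 0; points are libraries, bars are means and error bars are SD (n = 3). Rif1-KO points lie above all control points for Nkd2, Rnf43, Cdx1, Ctnnb1 and Axin2, and below them for Tcf7 and Tcf7l1.

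Axin2 encodes a scaffold of the destruction complex and is the most widely used Wnt target, since it is induced by beta-catenin and limits it. It had 23.0, 22.2 and 21.98 CPM in Rif1-KO libraries, against 19.9, 18.0 and 21.5 CPM in control. The 3 Rif1-KO libraries stood just above the highest control library, with means of 22.4 ± 0.507 CPM in Rif1-KO libraries and 19.8 ± 1.74 CPM in control. The log2 fold change was 0.18 ± 0.09 (SE) and did not pass (adjusted p = 0.111). Its 95% interval ran from -0.01 to 0.37, so a rise of more than 0.37 on the log2 scale lies outside the interval and a small one does not.

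Nkd1 and Nkd2 encode Naked cuticle proteins, which bind Dishevelled and dampen the signal. Nkd2 had 8.59, 7.17 and 7.77 CPM in Rif1-KO libraries, against 3.46, 5.10 and 3.76 CPM in control. Every Rif1-KO library was above every control library, and the gene rose by 0.95 ± 0.17 on the log2 scale, or 1.93-fold (adjusted p = 0.00011). Nkd1 had 3.34, 2.32 and 3.28 CPM in Rif1-KO libraries, against 2.59, 3.52 and 3.21 CPM in control. Its groups overlapped, and its log2 fold change of -0.05 ± 0.22 (95% interval -0.51 to 0.42) did not pass (adjusted p = 0.87).

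Rnf43 encodes a membrane ubiquitin ligase that removes Frizzled receptors from the cell surface, another feedback inhibitor. It had 4.43, 4.75 and 4.81 CPM in Rif1-KO libraries, against 3.14, 2.55 and 2.99 CPM in control. The groups did not overlap, and the gene rose by 0.68 ± 0.19 on the log2 scale (adjusted p = 0.00535). The call was lost with DESeq2 (adjusted p = 0.0726, at nearly the same log2 fold change of 0.67).

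Sp5 encodes a zinc finger factor that is known as a direct Wnt target in embryonic stem cells. It was hardly read, with 4, 7 and 4 counts in Rif1-KO libraries, against 1, 2 and 5 counts in control. The groups overlapped, and the ratio of summed counts, 1.65, had an exact 95% interval from 0.657 to 4.50, which covers counting error only. No difference was detectable at this depth. Cdx1, a homeobox gene of the posterior embryo and the gut, was low as well. It had 1.99, 2.93 and 2.62 CPM in Rif1-KO libraries, against 0.865, 0.121 and 0.553 CPM in control, from 75 counts in all in Rif1-KO libraries and 14 in control. Every Rif1-KO library stood above every control library, with a log2 fold change of 2.21 ± 0.39 (adjusted p = 8.17e-05) and a ratio of counts of 4.72 (exact 95% interval 2.64 to 9.04). Because the control level lay under the filter's limit of 1.09 CPM, Cdx1 could enter the test only through a level above that limit in Rif1-KO libraries.

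The promoters of the targets were searched for the TCF core, because TCF and LEF factors bind it. RefSeq (GRCm38.p6) gave 15 promoter windows for 9 of the 10 genes, each from 250 bases before to 50 bases after a gene's start. The word searched, on both strands, was CTTTGNN with A or T at each N. Of 32851 windows of 300 bases over all genes, 16.9% held it at least once. Among the 15, only the Sp5 window and 1 of the 4 Lef1 windows held a match. Sp5 had 2 matches, which start 222 and 104 bases before the gene's start, and was the least read of the 10 genes. The Sp5 window is shown beside those of Axin2 and Nkd2, targets with no match of which Nkd2 rose, and of Tcf7l1, a TCF gene that fell. Capitals mark the matches, 5′ to 3′ on the gene's strand. The windows are chr2:70474673-70474972 on the plus strand for Sp5, chr11:108920099-108920398 on the plus strand for Axin2, chr13:73847582-73847881 on the minus strand for Nkd2 and chr6:72788996-72789295 on the minus strand for Tcf7l1, all in GRCm38.p6.
Sp5: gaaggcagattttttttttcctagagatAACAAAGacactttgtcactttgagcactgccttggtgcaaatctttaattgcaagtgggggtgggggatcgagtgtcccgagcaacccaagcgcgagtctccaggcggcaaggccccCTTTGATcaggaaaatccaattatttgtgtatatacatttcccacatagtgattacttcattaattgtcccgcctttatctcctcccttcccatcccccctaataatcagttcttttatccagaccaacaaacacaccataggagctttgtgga
Axin2: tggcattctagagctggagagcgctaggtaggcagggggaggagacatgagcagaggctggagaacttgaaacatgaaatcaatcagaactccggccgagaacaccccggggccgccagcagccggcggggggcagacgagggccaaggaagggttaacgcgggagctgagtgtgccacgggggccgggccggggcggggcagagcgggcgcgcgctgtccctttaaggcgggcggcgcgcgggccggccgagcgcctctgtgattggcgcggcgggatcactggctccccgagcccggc
Nkd2: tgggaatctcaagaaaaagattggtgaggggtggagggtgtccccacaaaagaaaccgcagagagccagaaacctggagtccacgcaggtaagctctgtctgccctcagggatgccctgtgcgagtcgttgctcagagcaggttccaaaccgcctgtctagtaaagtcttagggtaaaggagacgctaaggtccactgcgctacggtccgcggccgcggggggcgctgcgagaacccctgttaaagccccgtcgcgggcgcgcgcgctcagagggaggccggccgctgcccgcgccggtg
Tcf7l1: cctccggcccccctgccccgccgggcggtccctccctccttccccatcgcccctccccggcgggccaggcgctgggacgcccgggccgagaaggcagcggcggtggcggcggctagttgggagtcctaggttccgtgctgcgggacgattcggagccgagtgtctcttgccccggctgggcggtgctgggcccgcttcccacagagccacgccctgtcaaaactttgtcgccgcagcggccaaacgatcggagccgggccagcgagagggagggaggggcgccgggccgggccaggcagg
A match is a run of letters and not a shown binding site, and a window without one says nothing of sites elsewhere, such as in introns or distal enhancers.

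Ctnnb1 encodes beta-catenin, which carries the signal and also links cadherins to the cytoskeleton. It had 948, 951 and 907 CPM in Rif1-KO libraries, against 811, 765 and 792 CPM in control. All Rif1-KO libraries were higher, and the gene rose by 0.25 ± 0.05 on the log2 scale, or 1.19-fold (adjusted p = 0.000149). RNA counts say nothing of the protein's stability, which is where the pathway acts on it.

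Of the TCF/LEF genes, Tcf7, Tcf7l1 and Tcf7l2 fell and Lef1 did not pass. Tcf7, which encodes TCF1, commonly an activator with beta-catenin, had 109, 113 and 117 CPM in Rif1-KO libraries, against 124, 141 and 131 CPM in control. The groups did not overlap, and Tcf7 fell by 0.22 ± 0.05 on the log2 scale (adjusted p = 0.00172). In RefSeq (GRCm38) the gene overlaps Skp1, listed as Skp1a in the tables, at 262 ± 23.8 CPM in Rif1-KO libraries and 239 ± 15.9 CPM in control, and with no stated strand setting reads in the overlap cannot be told apart. Tcf7l1, which encodes TCF3 (TCF7L1), the main TCF repressor of embryonic stem cells, had 51.9, 55.8 and 58.4 CPM in Rif1-KO libraries, against 68.1, 84.2 and 78.5 CPM in control. It too had no overlap between groups and fell by 0.48 ± 0.07 on the log2 scale, to 0.719 of the control level (adjusted p = 1.46e-05). Lef1, an activator and itself a Wnt target in many tissues, had 1.45, 1.21 and 2.19 CPM in Rif1-KO libraries, against 1.19, 1.34 and 0.774 CPM in control. Those groups overlapped, and its log2 fold change of 0.54 ± 0.34 (95% interval -0.16 to 1.24) did not pass (adjusted p = 0.189). Tcf7l2, the remaining TCF gene, had 19.0, 18.9 and 18.6 CPM in Rif1-KO libraries, against 23.8, 22.8 and 22.9 CPM in control, and fell by 0.30 ± 0.09 on the log2 scale (adjusted p = 0.00624).

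**Figure D2:**
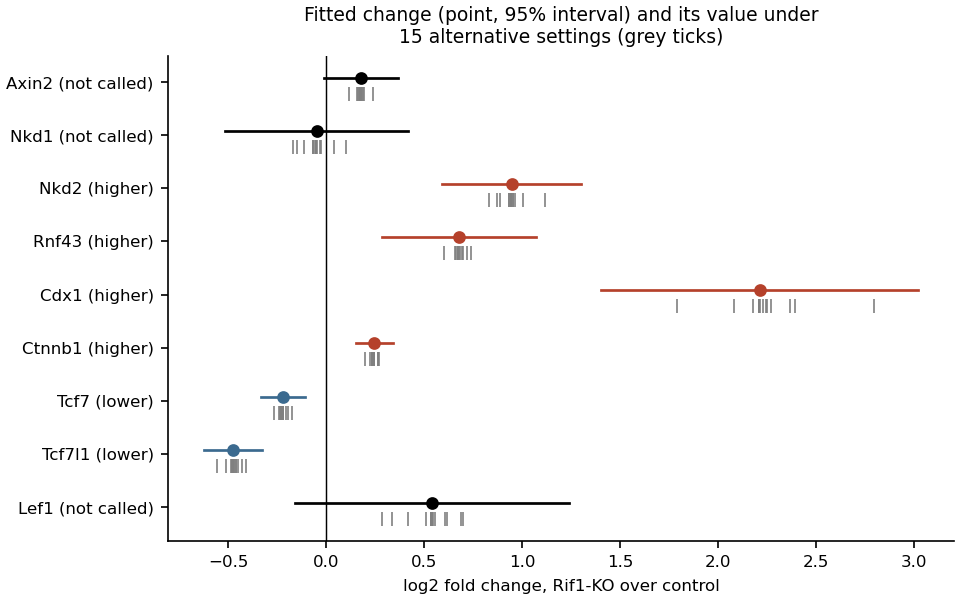
Log2 fold change of Rif1-KO over control for the 9 tested genes (points), with 95% intervals (lines) and the values under 15 alternative settings (grey ticks). Nkd2, Rnf43, Cdx1 and Ctnnb1 lie to the right of 0 and Tcf7 and Tcf7l1 to the left under every setting shown, while the ticks of Nkd1 fall on both sides.

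To compare genes with each other, CPM was divided by the length of each gene's merged exons in GENCODE M21 (GRCm38), which gives a level per kilobase (kb). Ctnnb1 led in both groups, with 258 ± 6.81 CPM per kb in Rif1-KO libraries and 218 ± 6.39 in control. Tcf7 followed with 43.1 ± 1.49 CPM per kb in Rif1-KO libraries and 50.2 ± 3.18 in control. Tcf7l1 had 17.9 ± 1.06 CPM per kb in Rif1-KO libraries and 25.0 ± 2.65 in control, and Axin2 had 5.26 ± 0.119 in Rif1-KO libraries and 4.64 ± 0.409 in control. These first 4 places were the same in both groups, with no overlap between neighbours.

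Below them, Nkd2 stood at 1.95 ± 0.177 CPM per kb in Rif1-KO libraries and 1.02 ± 0.218 in control, next in order in both. Cdx1 came next in Rif1-KO libraries, at 1.44 ± 0.274 CPM per kb, and had 0.293 ± 0.213 CPM per kb in control. Rnf43 had 1.03 ± 0.0453 CPM per kb in Rif1-KO libraries and 0.637 ± 0.0669 CPM per kb in control. Nkd1, Lef1 and Sp5 were under 1 CPM per kb in every library, as were Cdx1 and Rnf43 in control. Nkd1 and Lef1 overlapped in Rif1-KO libraries, as did Nkd1 and Rnf43 in control, so their order is not set there. In control the levels of Lef1 and Cdx1 overlapped as well, as did those of Cdx1 and Sp5.

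Among the 4 TCF/LEF genes on the same scale per kb, Tcf7 made up 65.5 ± 0.34% of the sum in Rif1-KO libraries and 62.2 ± 0.656% in control (SD, n = 3). Tcf7l1 made up 27.3 ± 0.545% in Rif1-KO libraries and 30.9 ± 1.25% in control. Tcf7l2 held 6.48 ± 0.324% in Rif1-KO libraries and 6.52 ± 0.6% in control, and Lef1 under 1% in every library. The ratio of Tcf7 to Tcf7l1 was 2.47, 2.39 and 2.35 in Rif1-KO libraries, against 2.14, 1.96 and 1.95 in control. The ratio was thus higher in every Rif1-KO library, although both genes fell. The shares and this ratio were put together with the genes' own changes known and are given without a test.

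**Figure D3:**
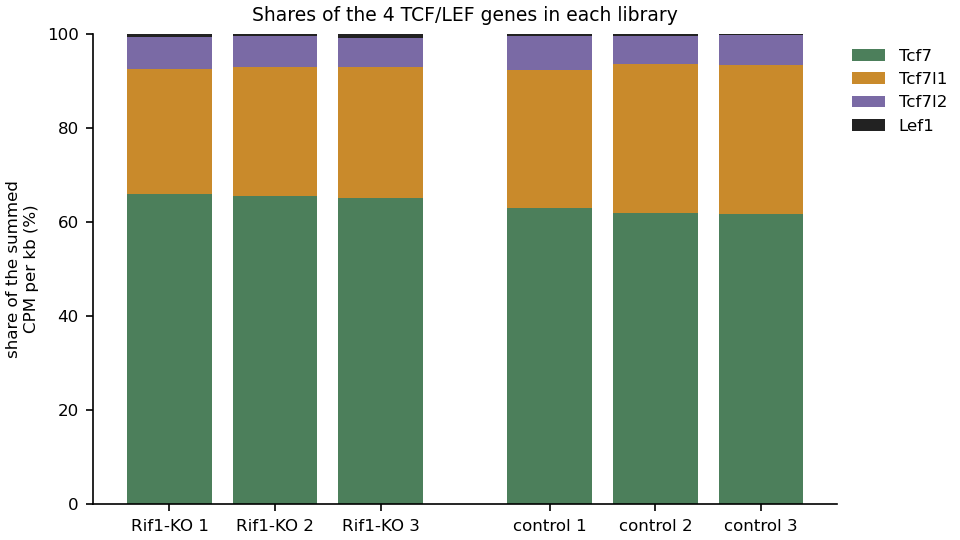
Share of each of the 4 TCF/LEF genes in their summed CPM per kb, as stacked bars, 1 per library. Tcf7l1 holds 26.7% to 27.8% in Rif1-KO libraries and 29.4% to 31.6% in control.

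The remaining pathway was read through lists grouped by role, whose shares of called genes are set beside the 50.9% over all genes (26.1% higher, 24.8% lower) without a test. Among 25 genes for Wnt and R-spondin ligands and their secretion, 7 were tested, of which 4 rose, none fell and 3 did not pass (57.1% called, against 50.9% over all genes). Wls, whose product carries Wnt proteins to the cell surface, had 21.3, 26.8 and 24.1 CPM in Rif1-KO libraries, against 6.05, 4.62 and 4.87 CPM in control, and rose by 2.20 ± 0.13 on the log2 scale (adjusted p = 6.43e-11). The ligand gene Wnt9a had 8.67 ± 1.17 CPM in Rif1-KO libraries and 2.23 ± 0.175 CPM in control, and Wnt10b had 40 counts in Rif1-KO libraries and 2 in control, a ratio of 17.6 (exact 95% interval 4.57 to 150.5). Wnt10b passed the filter only through Rif1-KO libraries. Wnt11 stood at 3.55 ± 0.546 CPM in Rif1-KO libraries and 3.21 ± 0.9 CPM in control and did not pass. Of the 5 ligand and secretion genes that met the limit in both groups, 3 rose (60% called). Their median log2 fold change was 0.74. Of the 13068 genes of all that met it in both groups, 3320 rose and 3431 fell (51.7% called), with a median of -0.009. The 18 genes left out had means over all 6 libraries of at most 1.14 CPM.

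Of 19 receptors and co-receptors, 17 were tested, of which 6 rose, 5 fell and 6 did not pass (64.7% called, against 50.9% over all genes), with a median of 0.08. The Frizzled gene Fzd10 had 18.0 ± 1.06 CPM in Rif1-KO libraries and 35.6 ± 1.54 CPM in control, and fell by 0.99 ± 0.08 on the log2 scale (adjusted p = 6.37e-09). Fzd5 fell by 0.39 ± 0.04 to 143 ± 2.14 CPM in Rif1-KO libraries, against 187 ± 1.91 CPM in control. Fzd1 met the filter's limit in every Rif1-KO library but not in every control library. It had 4.10 ± 0.278 CPM in Rif1-KO libraries and 1.02 ± 0.472 CPM in control. The co-receptor gene Lrp6 stood at 138 ± 4.45 CPM in Rif1-KO libraries and 131 ± 2.52 CPM in control and did not pass (adjusted p = 0.151). These counts moved with the processing: DESeq2 and the fit without control replicate 3 each gave 2 higher and 3 lower, the offset for GC content and length 2 higher and 7 lower, and scaling by library totals 6 higher and 3 lower. Without Rif1-KO replicate 1, 3 were lower. The calls over all genes moved too, from 3722 higher and 3529 lower in the main fit. DESeq2 gave 2827 higher and 2742 lower over all genes, and the fit without control replicate 3 gave 3288 and 3080. The offset gave 2883 and 4747, library totals gave 3900 and 3289, and the fit without Rif1-KO replicate 1 gave 3340 and 3037.

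Of 20 secreted and membrane inhibitors, 18 were in the tables and 9 were tested, of which 3 rose, 2 fell and 4 did not pass (55.6% called, against 50.9% over all genes), with a median of 0.08. Dkk3, a Dickkopf family gene, had 33.5 ± 2.24 CPM in Rif1-KO libraries and 65.7 ± 3.54 CPM in control and fell by 0.97 ± 0.07 on the log2 scale (adjusted p = 5.81e-10). Sfrp1, a secreted Frizzled-related antagonist, fell by 0.32 ± 0.04 to 155 ± 2.85 CPM in Rif1-KO libraries, against 193 ± 1.66 CPM in control. Kremen1, a Dickkopf receptor, rose by 0.37 ± 0.07, and Sfrp4 stood at 19.7 ± 1.64 CPM in Rif1-KO libraries and 18.7 ± 1.90 CPM in control. Notum, another feedback target, had 5.13 ± 1.28 CPM in Rif1-KO libraries and 4.87 ± 0.746 CPM in control, short of the threshold (adjusted p = 0.864). It was named after its values were seen.

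In the list of Dishevelled and the destruction complex, 21 of 22 genes were tested, of which 8 rose, 3 fell and 10 did not pass (52.4% called, against 50.9% over all genes), with a median of 0.14. Dvl1, which relays the receptor signal, rose by 0.54 ± 0.06 to 87.6 ± 2.05 CPM in Rif1-KO libraries, against 60.4 ± 2.52 CPM in control (adjusted p = 1.19e-07). The casein kinase gene Csnk1e rose by 0.35 ± 0.05. Gsk3b, which encodes a form of GSK3, the kinase that 2i medium inhibits, rose by 0.27 ± 0.05. It had 144 ± 3.96 CPM in Rif1-KO libraries, against 120 ± 4.06 CPM in control. Gsk3a, which encodes the other form, stood at 75.2 ± 2.79 CPM in Rif1-KO libraries and 79.4 ± 2.13 CPM in control. Gsk3a did not pass (adjusted p = 0.247) and was named after its values were seen. The tankyrase gene Tnks2, whose product marks Axin for breakdown, stood at 668 ± 9.03 CPM in Rif1-KO libraries and 628 ± 17.2 CPM in control and did not pass (adjusted p = 0.0958). The GC and length offset gave 2 higher and 6 lower in this list, and 2883 higher and 4747 lower over all genes.

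Of 22 nuclear partners of beta-catenin and TCF, all tested, 2 rose, 5 fell and 15 did not pass (31.8% called, against 50.9% over all genes), with a median of -0.04. Smarca4, the ATPase of the BAF chromatin remodeller, fell by 0.41 ± 0.05 on the log2 scale to 298 ± 14.7 CPM in Rif1-KO libraries, against 396 ± 29.9 CPM in control. Aes, a short Groucho-related gene, fell by 0.35 ± 0.05, and the Groucho co-repressor gene Tle4 rose by 0.31 ± 0.06. Tle3, the most highly read Groucho gene, stood at 499 ± 9.02 CPM in Rif1-KO libraries and 520.3 ± 16.7 CPM in control and did not pass (adjusted p = 0.267). DESeq2 gave 3 lower and the offset for GC content and length gave 10, with 2 higher in each. For all genes, DESeq2 gave 2742 lower and the offset gave 4747, against 3529 in the main fit.

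Of 20 further Wnt targets, 14 were tested, of which 5 rose, 5 fell and 4 did not pass (71.4% called, against 50.9% over all genes), with a median of 0.24. Jun, an AP-1 factor gene, had 105, 110.1 and 104 CPM in Rif1-KO libraries, against 26.2, 24.2 and 25.1 CPM in control, and rose by 2.08 ± 0.06 on the log2 scale (adjusted p = 1.09e-15). Id2, an inhibitor of helix-loop-helix factors, rose by 2.60 ± 0.15 to 20.1 ± 1.41 CPM in Rif1-KO libraries, against 3.28 ± 0.96 CPM in control. Ccnd1, which encodes cyclin D1, fell by 1.02 ± 0.06 to 33.8 ± 0.921 CPM in Rif1-KO libraries, against 68.7 ± 2.07 CPM in control. Jun, Id2 and Ccnd1 also answer to pathways other than Wnt, such as ERK and BMP signalling. Eomes stood at 9.63 ± 0.625 CPM in Rif1-KO libraries and 8.58 ± 0.39 CPM in control and did not pass. Ccnd2 and Wisp1, among the 5 that rose, met the filter's limit in every Rif1-KO library but not in every control library. Of the 11 further targets that met the limit in both groups, 3 rose and 5 fell, with a median of 0.17. That is 72.7% called, against 51.7% of all genes that met it in both groups. DESeq2 called 2 higher, and the fits without Rif1-KO replicate 2 and without control replicate 2 each called 3. For all genes, DESeq2 called 2827 higher and those fits called 3380 and 3422 in that order, against 3722 in the main fit.

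Genes of naive pluripotency that TCF7L1 is known to repress were read beside the fall of Tcf7l1. Among the 11 tested, 4 rose, 3 fell and 4 were not called (63.6% called, against 50.9% over all genes), with a median log2 fold change of -0.02. Tbx3 rose by 0.49 ± 0.05 to 467 ± 17.3 CPM in Rif1-KO libraries, against 332 ± 2.65 CPM in control. Nr5a2 fell by 0.47 ± 0.06 to 62.2 ± 5.46 CPM in Rif1-KO libraries, against 85.9 ± 3.61 CPM in control, and Fgf4 fell by 0.36 ± 0.05. Esrrb, known as a main target of that repression, stood at 904 ± 16.8 CPM in Rif1-KO libraries and 916 ± 6.47 CPM in control, with a log2 fold change of -0.02 ± 0.04 that did not pass (adjusted p = 0.74).

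**Figure D4:**
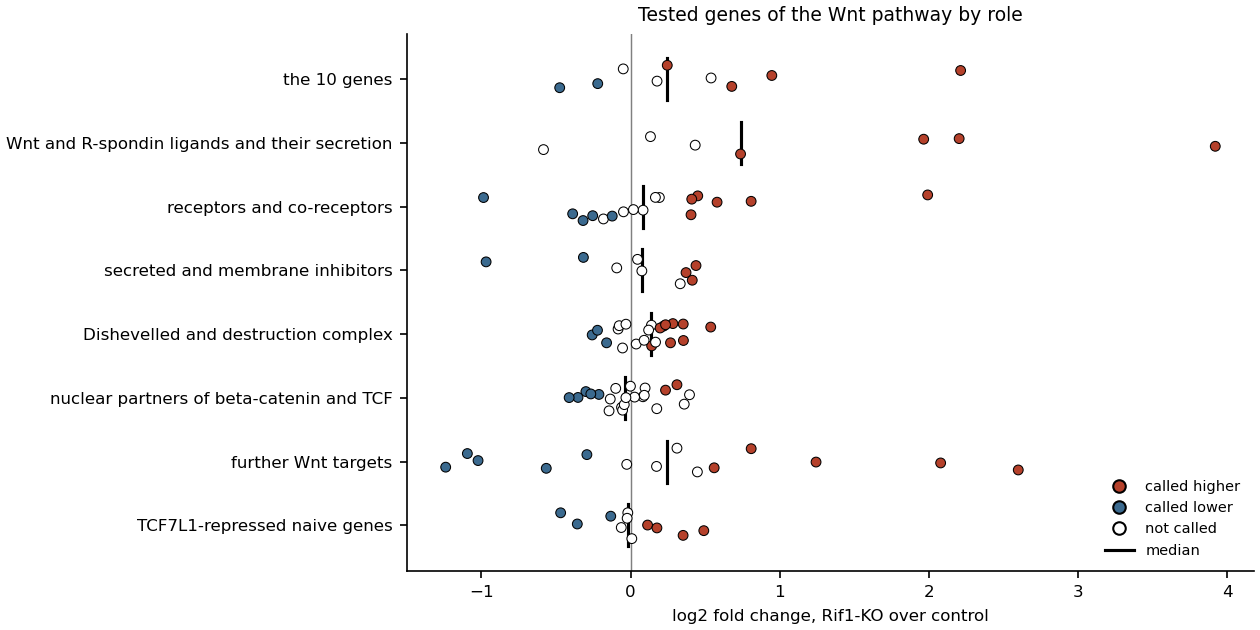
Log2 fold change of Rif1-KO over control for every tested gene of the 10 and of the 7 lists by role (points; filled where called), with each list's median (bar). Medians run from -0.04 for the nuclear partners to 0.74 for ligands and their secretion, and every list but the ligands has called genes on both sides of 0.

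Wnt targets also mark other cell types, which could arise in such a culture, so marker lists were read beside them. In bulk RNA, more cells of a type and more RNA per cell cannot be told apart. Over all genes tested, 26.1% were called higher and 24.8% lower, and the marker counts are given beside those shares without a test. The 9 primitive streak and mesoderm markers, a fate in which Cdx1 and Sp5 are active, summed to between 21.3 and 23.9 CPM in Rif1-KO libraries and between 22.9 and 26.6 CPM in control. Of the 5 that were tested, 2 were called higher and 1 lower, and Evx1 was at 0 in every library. Mesp2 rose by 0.78 ± 0.26 and Kdr by 0.77 ± 0.26 on the log2 scale. Gsc fell by 1.12 ± 0.17, to 3.77 ± 0.729 CPM in Rif1-KO libraries, against 8.34 ± 0.908 CPM in control. The similar sums thus hold changes in both directions. The 6 primitive endoderm markers summed to between 30.2 and 32.8 CPM in Rif1-KO libraries, against 15.4 to 16.3 CPM in control, with 5 called higher. The 6 trophectoderm markers summed to between 139 and 153 CPM in Rif1-KO libraries, against 48.0 to 49.7 CPM in control, nearly all of it from the keratin genes Krt8 and Krt18, with Cdx2 at 0 in every library. Of the 4 neuroectoderm markers in the tables, 3 were tested and all 3 were called higher. The 4 summed to between 108 and 113 CPM in Rif1-KO libraries, against 44.9 to 54.3 CPM in control. Most of that sum was Nes, at 99.8 ± 3.47 CPM in Rif1-KO libraries and 46.2 ± 5.66 CPM in control. Zic1 and Sox11 were called higher as well, and Pax6 was not tested. Zic1 had 2.59 ± 0.0549 CPM in Rif1-KO libraries and 0.634 ± 0.326 CPM in control, under the filter's limit of 1.09 CPM. Like Sox17, Zic1 could therefore enter the test only through Rif1-KO libraries. The 6 fibroblast markers summed to between 23.6 and 27.8 CPM in Rif1-KO libraries, against 22.7 to 32.9 CPM in control. Of the 4 that were tested, 1 was called each way. The part of these markers in the changes of Nkd2, Rnf43 and Cdx1 was not tested.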

How the data were processed

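For each of the 6 libraries the authors deposited whole-number counts of reads by gene symbol, not normalized. The submitters' processing notes name STAR, featureCounts 1.6.2 and the build mm9. Which annotation, strand setting and rule for multi-mapping reads they used is not given in the sources used here. Per the labels' protocols, an mRNA kit and 200 ng of total RNA went into each library. Whether replicates came from separate cultures is not said, so the p-values cover no more than the scatter of these samples, possibly technical.

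From the counts, edgeR 4.0.16 in R 4.3.3 was run with TMM scaling, filterByExpr (limit 1.09 CPM in 3 libraries) and glmQLFTest on the group term, with no covariate. No library repeats another: within groups, pairs differed beyond counting noise (chi-square per degree of freedom 1.28 to 4.47). Fold changes are Rif1-KO over control, with standard errors and 95% intervals from the same fit. Count ratios have exact 95% binomial intervals, which cover counting error only. The fit was tested on simulated data with the same spread for every gene, in which few genes changed and none of low level did. That test does not speak for genes of low level such as Cdx1.

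Alternatives were 3 other scalings, 2 other filters, DESeq2 1.42.0, limma-voom (limma 3.58.1), a replicate block, an offset for GC content and length, and leaving out each library. The 10 genes and all lists were chosen with earlier results of these data known. All 10 were named. From each list the text names the 3 called genes with the smallest adjusted p and the most highly read gene that was tested and not called. Of the lists' symbols, Trabd2a, Trabd2b, Tfcp2l1 and Sox1 were not matched and are not analysed here. Gene length and GC content came from GENCODE M21, another build than mm9. No gene among the 10 shared more than 2.15% of its 50-base stretches with other genes. The promoter of Cdx1 is not shown.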

Additional observations from a re-analysis of the deposited data

How the results depend on the processing

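Of 135 recomputed log2 fold changes of the 9 tested genes, 132 kept their direction and their side of the threshold. Nkd2, Cdx1, Tcf7, Tcf7l1 and Ctnnb1 were called the same way under all 15 alternatives, and Axin2 and Lef1 were called under none of them, with Axin2 between 0.11 and 0.24 (adjusted p 0.0723 to 0.366). Rnf43 was lost only with DESeq2 (0.67, adjusted p = 0.0726; over all alternatives 0.0046 to 0.0726). Nkd1, never called, ran from -0.17 to 0.10 and changed sign without Rif1-KO replicate 2 (0.10) and without control replicate 2 (0.04). The causes were not tested. The 10 genes gave 4 higher and 2 lower calls under every alternative but DESeq2, which gave 3 higher.

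Counts for receptors were 2 higher and 3 lower with DESeq2, 2 higher with the GC and length offset, and 3 lower with library totals; leaving out 1 library gave 2 to 5 higher and 3 to 5 lower. The offset gave 2 higher and 6 lower for Dishevelled and the destruction complex, and 10 lower for nuclear partners, where DESeq2 gave 3. Further targets called higher were 2 with DESeq2 and 3 to 6 with 1 library left out. For all genes, the main fit gave 3722 higher and 3529 lower, DESeq2 gave 2827 and 2742, and library totals gave 3900 and 3289. Leaving out 1 library gave 3288 to 3667 higher and 3037 to 3432 lower over all genes. The offset gave 2883 higher and 4747 lower, and moved the median of all genes to -0.08.

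Same-numbered libraries did not deviate together (correlations 0.06, -0.06 and 0.04), so the numbers are not taken as pairs. With the replicate block, 3779 genes were higher and 3607 lower, and the 10 genes again gave 4 and 2. Genes with few counts, such as Sp5 with 23 in all, limit what could be detected.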

Other observations

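Jup encodes plakoglobin (gamma-catenin), the closest relative of beta-catenin, which sits in desmosomes and can also bind TCF factors. It is on no list and was added for that kinship. Jup had 276, 274 and 271 CPM in Rif1-KO libraries, against 162, 170 and 156 CPM in control. The groups did not overlap, and by edgeR's quasi-likelihood test Jup rose by 0.75 ± 0.05 on the log2 scale, or 1.69-fold (adjusted p = 6.43e-11), against 1.19-fold for Ctnnb1. Ctnnb1 remained the more highly read of the pair, at 258 ± 6.81 CPM per kb in Rif1-KO libraries.

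The genes whose log2 CPM followed Axin2 most closely over the 6 libraries, among 9817 genes with at least 10 CPM, were Bend4 (Pearson r = 0.991), Pacs2 (0.986), Naa11 (0.983), E330009J07Rik (0.982) and Zdhhc21 (0.981). All 5 were called higher. The group difference and the libraries' depth enter these values. By deviations from the group means, which leave the group difference out, the 5 closest were instead 4930444A02Rik (0.997), Dirc2 (0.995), Fam118b (0.992), Heatr3 (0.989) and Ubxn7 (0.986). None of them is among the first 5, although those too had high values by deviations, from 0.960 (Naa11) to 0.985 (Bend4). With 6 libraries and 9817 genes such values are a description only.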
